A study of Arabidopsis thaliana with 34 samples.

Results

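The genes described are 10 loci of aliphatic glucosinolate synthesis in Arabidopsis, chosen by name. They are the regulators MYB28 (AT5G61420) and MYB29 (AT5G07690), the chain-elongation enzymes BCAT4 (AT3G19710) and MAM1 (AT5G23010), the core enzymes CYP79F1 (AT1G16410), CYP79F2 (AT1G16400), CYP83A1 (AT4G13770), SOT18 (AT1G74090) and SOT17 (AT1G18590), and the side-chain enzyme FMO GS-OX1 (AT1G65860). Of these 10 genes, 9 have a named row in the array table, each with 1 row, among 24530 named genes on 34558 rows. FMO GS-OX1 has no named row and was not analysed here.

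Aliphatic glucosinolates are sulfur-rich defence compounds of the cabbage family that Arabidopsis makes from methionine. Methionine is first lengthened in cycles, the lengthened amino acid is then turned into the glucosinolate core through an aldoxime and a final sulfation, and the side chain is modified last. MYB28 and MYB29 are the transcription factors known to switch on the genes of all these steps, and wounding brings the products together with myrosinases, which release toxic isothiocyanates or nitriles.

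RNA came from shoots of 16-day-old plants of the Landsberg background, and every result compares groups of 3 lines. C13 is a line that makes haemoglobin of the bacterium Vitreoscilla in the cytoplasm (line 1:3), Mt62 is a line that makes it in mitochondria (line 6:2), and WT is the wild type. Each of the lines was kept in hypoxia (4% oxygen in sealed bags with an oxygen-consuming sachet) for 2 or 24 h, or treated for 2 or 24 h with DETA at 500 µM, which releases nitric oxide, or left untreated as a control taken at 0, 2 and 24 h. Hypoxia and DETA were applied in separate experiments. The same control group of each line and time serves both treatments. A difference between their responses therefore cannot be told apart from a difference between the experiments. Each haemoglobin line is represented by a single line, and the labels do not name the promoter of the transgene.

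The design text gives 4 biological replicates per group, hybridized in 3 dyes over 27 array fields of 7 slides; the sample descriptions list 4 channels for 18 of the 21 groups and 3 channels for the other 3. It does not say whether these were grown as separate cultures, so p-values measure the spread between the samples as labelled. The authors' deposited table holds no value per array. Each of its 34 columns is the log fold change of a group over another (taken as log2; the base is not stated), and a value is listed only where the authors' empirical Bayes p was at most 0.01; otherwise the gene is called not listed here. A listed value is what is meant below by rose or fell. Replicate spread is therefore known only as an upper bound: the smallest listed value of a row limits its standard error. For a difference between groups of 4 channels that bound was lowest for MYB29 (0.20), and highest for BCAT4 (0.40) and CYP79F1 (0.40). The same reasoning limits a value that is not listed, to a size below 0.52 for MYB29 and below 1.04 for BCAT4. No transgene row is named, and because the table holds no levels the labelled organ cannot be checked against marker levels.

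Over all 34 columns the 9 genes had 65 listed values among 306, of which 54 were lower and 11 higher. Against the control of the same time 31 of 108 were listed, 22 lower and 9 higher, beside 9.05% lower and 8.92% higher over all named genes in the same 12 columns; 18 of the 22 lower values came from hypoxia for 24 h. Against the 0 h control 33 of 108 were listed, 32 lower and 1 higher, beside 9.06% lower and 9.28% higher over all named genes. Between a haemoglobin line and WT under the same condition 1 of 90 was listed, beside 2.42% over all named genes.

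**Figure D1:**
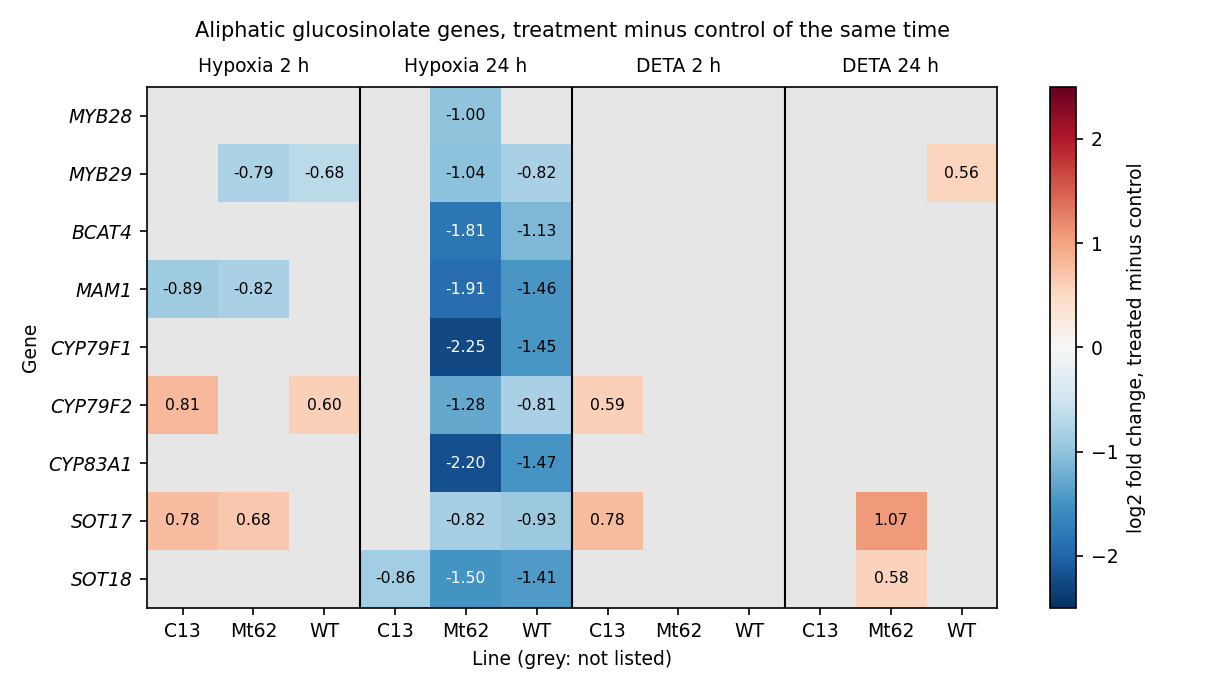
Log2 fold change of the 9 measured genes (rows) for each treatment against the control of the same time in each line (columns), as listed in the authors' deposited table, with grey where no value is listed. The values of hypoxia for 24 h are falls between -0.81 and -2.25 for 9 genes in Mt62 and 8 in WT (MYB28 is not listed there), while C13 has SOT18 alone at -0.86.

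After 24 h of hypoxia nearly all of the measured genes were lower in Mt62 and in WT. Against the 24 h control, 1 of 9 genes fell in C13, 9 of 9 in Mt62 and 8 of 9 in WT, and none rose. Among all named genes the share listed lower was 17.1% in C13, 15.8% in Mt62 and 17.0% in WT, and the share listed higher was 17.5% in C13, 15.1% in Mt62 and 18.8% in WT. The median of the listed falls was -1.50 in Mt62 and -1.27 in WT, against medians of -0.80 in Mt62 and -0.83 in WT over all genes listed lower.

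Both regulators fell in Mt62, and MYB29 also fell in WT. MYB28, the main activator of the pathway, was at -1.0 in Mt62 and was not listed in C13 or WT, where its size is limited to below 0.85. MYB29, its partner gene with an accessory role, was at -1.04 in Mt62 and -0.82 in WT and was not listed in C13. In the annotation TAIR10.1 MYB29 lies next to MYB76, a related regulator, which was at -0.81 in C13, -1.46 in Mt62 and -1.55 in WT.

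Of the chain-elongation enzymes, BCAT4, the aminotransferase that commits methionine to the pathway, was at -1.81 in Mt62 and -1.13 in WT and was not listed in C13. MAM1, the synthase that adds the carbon unit in each cycle, was at -1.91 in Mt62 and -1.46 in WT. In C13 MAM1 was not listed, which limits its size to below 0.75. Such a limit is set by the smallest listed value of the row. For every gene it therefore cannot exceed the listed falls of the other lines, and it is no test of a difference. The MAM locus is known to differ between Arabidopsis accessions, Landsberg included, and which MAM copy the MAM1 row reads in these plants was not tested; its neighbour MAM3 was listed in 0 of 34 columns.

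In Mt62 the deepest falls were in enzymes that build the core. CYP79F1, which makes the aldoximes, was at -2.25 in Mt62 and -1.45 in WT, that is 0.211 and 0.365 times the control level, and was not listed in C13. CYP83A1, which oxidizes those aldoximes, was at -2.20 in Mt62 and -1.47 in WT, or 0.218 and 0.361 times the control level, and was not listed in C13. CYP79F2, the adjacent copy of CYP79F1 that acts on the longest chains, was at -1.28 in Mt62 and -0.81 in WT and was not listed in C13. Whether the rows of these neighbouring copies read both transcripts was not tested.

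The sulfotransferases close the core by adding sulfate. SOT18, which prefers methionine-derived substrates, fell in every line: -0.86 in C13, -1.50 in Mt62 and -1.41 in WT. SOT17, its close relative, was at -0.82 in Mt62 and -0.93 in WT and was not listed in C13. SOT17 was thus the member with the smallest listed fall in Mt62, and CYP79F1 the one with the largest.

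The 3 lines were then set side by side gene by gene. Of the 9 genes, 7 were listed lower in Mt62 and WT and not in C13, a pattern that 1.55% of all named genes have, and SOT18 was lower in all 3 lines, as 11.0% of named genes are. A value listed in some lines and not in others does not show that the lines differ, so the difference was tested where both responses were available, with a p-value that is at most the printed one and a Benjamini-Hochberg adjustment over all rows. Under hypoxia for 24 h against the 24 h control, SOT18 alone could be tested for C13: its response differed from that of WT by 0.55 (bound of the standard error 0.32, adjusted p at most 1.00), and that of Mt62 from that of C13 by -0.64 (bound 0.32, adjusted p at most 0.823). The value was lower in Mt62 than in WT for 7 of the 8 genes listed in both, with differences from -0.09 for SOT18 to -0.79 for CYP79F1, and no difference passed (adjusted p at most 1.00 for each). A p-value that misses the threshold, computed from an upper bound of the error, does not show that the responses were alike.

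The direct comparison of the lines under hypoxia gave 1 listed value. MAM1 was higher in C13 than in WT after 24 h of hypoxia, by 0.94 (1.92 times the WT level). The share of named genes listed higher in that comparison was 1.47%, so 1 of 9 genes is a small count, and the value did not pass when adjusted over all rows (adjusted p at most 0.302). In the other pathway list given below, 2 of 13 genes were also listed higher in C13 than in WT in that condition, GSTU20 at 0.99 and IPMDH1 at 0.81. No adjusted p is given for them. The other listed values of that list against WT under hypoxia were lower. They were UGT74C1 after 2 h, at -0.48 in C13 and -0.47 in Mt62, and IPMI SSU2 after 24 h, at -0.80 in Mt62. At 0 h, before any treatment, 0 of 9 genes were listed in C13 against WT and 0 of 9 in Mt62 against WT, where 2.78% and 0.775% of named genes were listed.

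Against the 0 h control more of the genes were listed lower in C13. After 24 h of hypoxia 5 of 9 genes were lower in C13, 9 of 9 in Mt62 and 9 of 9 in WT, where 18.0%, 16.1% and 17.9% of named genes were listed lower. The 5 genes were lower in all 3 lines (11.8% of named genes), and the other 4 in Mt62 and WT and not in C13 (1.41%). These comparisons share their hypoxic samples with those above and are given only as the same plants set against another control.

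MYB29 was the member with the most even fall against the 0 h control, with -1.40 in C13, -1.28 in Mt62 and -1.39 in WT. SOT18 followed with -1.29 in C13, -1.83 in Mt62 and -1.50 in WT. CYP83A1 was at -0.98 in C13, -2.44 in Mt62 and -1.88 in WT, so that its listed values spread widely between the lines. CYP79F1 was at -1.02 in C13, -2.09 in Mt62 and -1.68 in WT.

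CYP79F2 was at -0.62 in C13, -1.26 in Mt62 and -0.69 in WT, and was the member with the smallest listed fall in C13. BCAT4 was at -2.33 in Mt62 and -1.04 in WT, MAM1 at -1.84 in Mt62 and -1.35 in WT, SOT17 at -1.31 in Mt62 and -0.85 in WT, and MYB28 at -1.03 in Mt62 and -0.85 in WT. These 4 genes were not listed in C13. Of the tested differences between lines, that of CYP83A1 between Mt62 and C13 had the lowest p, with a difference of -1.47, a bound of the standard error of 0.56, p at most 0.0110 and adjusted p at most 0.572. The difference of BCAT4 between Mt62 and WT was -1.29, with a bound of 0.59, p at most 0.0338 and adjusted p at most 0.999. In all, 31 differences of a haemoglobin line from WT and 10 of Mt62 from C13 could be computed for the members, and 0 passed; 1 of the 31 and 3 of the 10 had p under 0.05 before adjustment. Over all rows with a value, 0.248% of differences passed for C13 from WT, 0.122% for Mt62 from WT and 0.173% for Mt62 from C13.

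**Figure D2:**
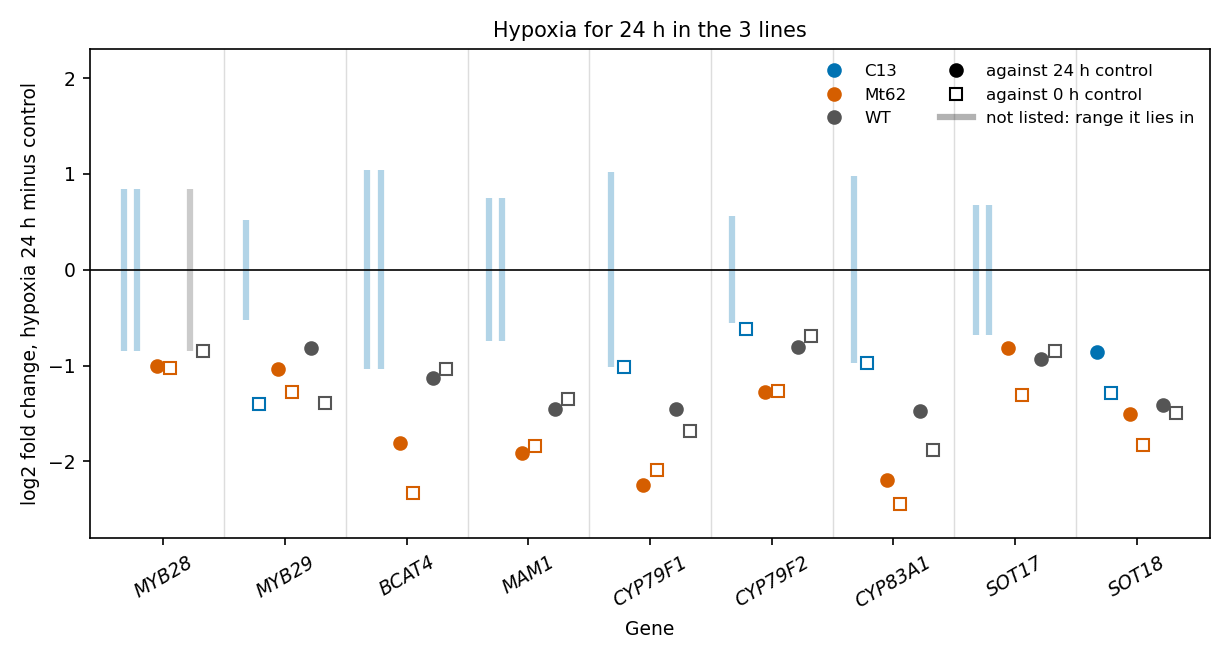
Log2 fold change of each gene after 24 h of hypoxia against the 24 h control (filled circles) and the 0 h control (open squares) in C13, Mt62 and WT. A pale bar spans the range in which a value that is not listed lies, from the smallest listed value of the gene's row. By this construction the C13 bars do not reach past the listed points of Mt62 and WT for any gene, and those of MAM1 end at 0.75.

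Untreated shoots were compared with themselves between 0 and 24 h. For Mt62 and WT the shift of the 24 h control from the 0 h control could be computed for 9 and 8 of the genes. In Mt62 the shifts lay between -0.52 for BCAT4 and 0.15 for CYP79F1, and in WT between -0.57 for MYB29 and 0.12 for CYP79F2. None passed the test, which 7.97% of rows with a value passed in Mt62 and 12.3% in WT; the nearest was MYB29 in WT (p at most 0.00687, adjusted p at most 0.0543, bound of the standard error 0.20), which passed with a t quantile for the bound (adjusted p at most 0.0422). In C13 the shift could be computed for SOT18 alone, at -0.42 (adjusted p at most 0.365), and 7.55% of rows passed there.

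After 2 h of hypoxia few of the genes had moved, and not all the same way. Against the 2 h control, 2 genes rose and 1 fell in C13, 1 rose and 2 fell in Mt62, and 1 rose and 1 fell in WT. Among named genes 9.68% were listed higher and 10.4% lower in C13, 9.37% and 10.0% in Mt62, and 8.23% and 9.91% in WT, so the counts of members are near the background.

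MYB29 had fallen by then, to -0.79 in Mt62 and -0.68 in WT, and was not listed in C13. Against the 0 h control it was lower in all 3 lines at 2 h, with -1.28 in C13, -1.27 in Mt62 and -1.07 in WT. It was the only member listed lower in all 3 lines at 2 h against that control, where 6.32% of named genes were. Its neighbour MYB76 was at -1.0 in Mt62 and -1.04 in WT against the 2 h control, and was likewise not listed in C13.

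MAM1 was at -0.89 in C13 and -0.82 in Mt62 against the 2 h control and was not listed in WT. CYP79F2 was higher, with 0.81 in C13 and 0.60 in WT, and SOT17 was higher, with 0.78 in C13 and 0.68 in Mt62. Adjusted over all rows with the bound, CYP79F2 in C13 alone of these 6 values kept its call; the others had adjusted p at most 0.0528 to 0.0756. MYB28, BCAT4, CYP79F1, CYP83A1 and SOT18 were not listed in any line at 2 h of hypoxia.

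CYP79F2 in WT and SOT17 in Mt62 were listed higher than the control at 2 h and lower at 24 h. Their 2 h values did not pass when adjusted over all rows (adjusted p at most 0.0600 for CYP79F2 and 0.0756 for SOT17). The difference between the times passed, but listed values of opposite sign give such a result by construction. The bound comes from the smallest listed value of the row, so the differences below for these genes add no support to the 2 h rises. In WT the response of CYP79F2 at 24 h differed from that at 2 h by -1.41 (bound of the standard error 0.31, adjusted p at most 0.000271), and hypoxic shoots at 24 h were lower than at 2 h by -1.25 (bound 0.22, adjusted p at most 5.4e-06; 34.6% of rows with a value passed). In Mt62 the response of SOT17 differed by -1.50 (bound 0.37, adjusted p at most 0.00229). Of rows for which this difference could be computed, 24.6% passed in WT and 15.7% in Mt62. MAM1 in Mt62 differed by -1.09 and did not pass (adjusted p at most 0.0593, and 0.0469 with a t quantile for the bound), and the differences of MYB29 were -0.25 in Mt62 and -0.13 in WT (adjusted p at most 0.693 and 0.813).

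**Figure D3:**
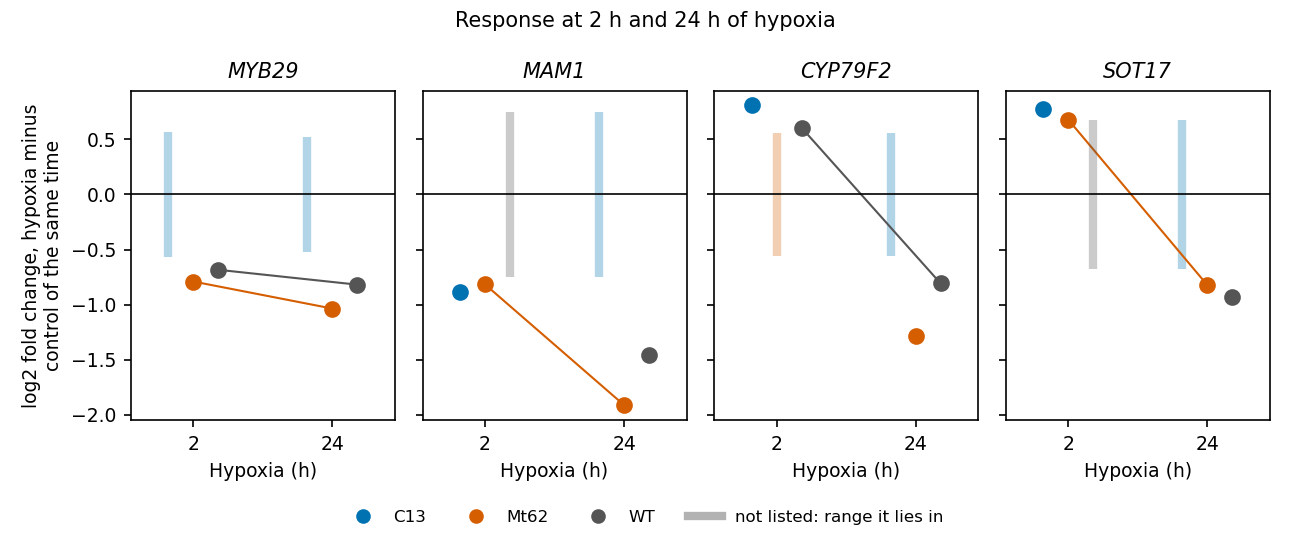
Log2 fold change of MYB29, MAM1, CYP79F2 and SOT17 against the control of the same time after 2 and 24 h of hypoxia, by line, with lines joining the listed values of a line. Pale bars span the range of a value that is not listed; CYP79F2 in WT and SOT17 in Mt62 lie above 0 at 2 h and below 0 at 24 h.

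DETA gave few listed values for these genes, and none lower, against the control of the same time. After 2 h, 2 of 9 genes rose in C13, 0 of 9 were listed in Mt62 and 0 of 9 in WT, where 4.81%, 5.69% and 5.81% of named genes were listed higher. Neither rise passed when adjusted over all rows (adjusted p at most 0.101 for SOT17 and 0.156 for CYP79F2). The genes in C13 were SOT17 at 0.78 and CYP79F2 at 0.59, both also higher in that line after 2 h of hypoxia, and the difference between these responses was -0.01 for SOT17 and 0.22 for CYP79F2 (adjusted p at most 0.986 and 0.497), a test that 39.7% of rows with a value passed. The treatments at 2 h share their control plants.

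After 24 h of DETA 0 of 9 genes were listed in C13, 2 of 9 rose in Mt62 and 1 of 9 rose in WT, where 3.99%, 2.72% and 5.31% of named genes were listed higher. Against the 24 h control both sulfotransferases were higher in Mt62, SOT17 at 1.07 and SOT18 at 0.58, and in WT MYB29 was higher at 0.56. Adjusted over all rows, SOT17 alone kept its call (adjusted p at most 0.243 for SOT18 and 0.111 for MYB29). None of these rises was listed against the 0 h control. The values computed against that control were 0.58 for SOT17 and 0.26 for SOT18 in Mt62, and -0.004 for MYB29 in WT. The rises therefore rest on the 24 h controls, whose computed shifts from 0 h were -0.48 for SOT17 and -0.32 for SOT18 in Mt62, and -0.57 for MYB29 in WT. For the same genes and lines hypoxia of the same length gave falls. The difference between the responses to hypoxia and DETA was -1.89 for SOT17 in Mt62 (bound of the standard error 0.26, adjusted p at most 8.4e-09), -2.08 for SOT18 in Mt62 (bound 0.23, adjusted p at most 7.6e-12) and -1.38 for MYB29 in WT (bound 0.20, adjusted p at most 2.2e-08). Both responses were listed with opposite signs, and the bound comes from the smallest listed value of the row. Passing the test was therefore built in and adds no support to the rises. The hypoxia and DETA responses share their control samples, and 64.3% of rows with a value passed this test in Mt62 and 65.2% in WT.

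Within DETA, SOT18 in Mt62 was higher at 24 h than at 2 h by 0.88 (bound 0.23, adjusted p at most 0.000775), and MYB29 in WT by 0.62 (bound 0.22, adjusted p at most 0.0126); 55.9% of rows with a value passed in Mt62 and 58.9% in WT. Against the 0 h control MYB29 was lower after 2 h of DETA in all 3 lines, with -0.84 in C13, -0.77 in Mt62 and -0.63 in WT, as were 3.97% of named genes. SOT18 was also listed lower in Mt62 at that time, at -0.63; adjusted over all rows, neither this value nor that of MYB29 in WT passed (adjusted p at most 0.0990 and 0.0592). After 24 h of DETA only MYB29 in C13 was listed lower against the 0 h control, at -0.52 (adjusted p at most 0.478 over all rows), and 1.53% of named genes were. In the untreated controls the computed shift of MYB29 from 0 to 2 h was -0.48 in Mt62 and -0.39 in WT and did not pass (adjusted p at most 0.156 and 0.222).

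The 9 genes varied together to unequal degree over the 34 columns, with values that are not listed set to 0. The Pearson correlation of each gene with the mean of the others was 0.98 for CYP83A1, 0.97 for CYP79F1, 0.93 for BCAT4, 0.90 for SOT18, 0.87 for MYB28, 0.85 for CYP79F2, 0.82 for MAM1, 0.78 for SOT17 and 0.57 for MYB29. These columns share samples and controls, so the correlations describe the table and are no test. MYB29, with the lowest correlation, was listed in 15 columns, and MYB28 in 3.

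The 10 genes outside the list whose values were most like the members' mean had correlations between 0.95 and 0.97. They were AT2G26520 (0.967), AT1G18090 (0.964), PLC8 (0.963), AT1G71070 (0.958), AOP3 (0.957), PDE318 (0.957), SKD1 (0.956), PDF1B (0.951), NSP1 (0.951) and NSP2 (0.948). AOP3 modifies the side chain of aliphatic glucosinolates, and NSP1 and NSP2 are nitrile specifier proteins that act on glucosinolate breakdown products. Against the 24 h control all 10 were lower after 24 h of hypoxia in Mt62 and WT and not listed in C13, with values in Mt62 from -0.45 in SKD1 to -1.90 in AOP3. Those columns were among the ones used to rank the genes, so this shared pattern follows from the choice and is no separate result. It does not hold for every gene with the 0 h control, against which NSP1 was lower in C13 too, at -0.72.

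Most of the remaining genes of the aliphatic pathway also fell in Mt62 and WT. Of 13 measured genes (18 were looked for), 2 were lower in C13, 11 in Mt62 and 10 in WT after 24 h of hypoxia against the 24 h control, and none rose. Among all named genes 17.1% were lower in C13, 15.8% in Mt62 and 17.0% in WT, so the C13 count is near that share. The shares listed higher were 17.5%, 15.1% and 18.8%. Of the 13 genes, 8 were lower in Mt62 and WT and not in C13, a pattern of 1.55% of all named genes. The largest falls in Mt62 were those of AOP3 at -1.90, of GSTU20, a glutathione transferase of the core pathway, at -1.89, of the chain-elongation dehydrogenase IPMDH1 at -1.70 and of the isomerase subunit IPMI SSU2 at -1.53. In WT the largest were IPMI SSU3 at -1.71, MYB76 at -1.55, GSTU20 at -1.47 and AOP3 at -1.27. SUR1 and UGT74B1, core enzymes used by both glucosinolate classes, were at -1.27 and -0.86 in Mt62 and at -1.36 and -0.99 in WT and were not listed in C13. Against the 0 h control both were lower in all 3 lines, at -0.92 and -1.15 in C13, -1.38 and -1.38 in Mt62, and -1.32 and -1.08 in WT. Of the other aliphatic genes, MYB76 (-1.39), IPMI SSU3 (-1.24), BAT5 (-0.71), UGT74C1 (-1.31) and GSL-OH (-1.49) were lower in C13 against that control. Of all named genes 18.0% were.

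Genes of the indolic branch, which starts from tryptophan, were listed in both directions. Of 13 measured genes, 2 fell and 2 rose in C13, 6 fell and 1 rose in Mt62, and 5 fell and 1 rose in WT after 24 h of hypoxia against the 24 h control. Of all named genes 17.1% fell and 17.5% rose in C13, 15.8% and 15.1% in Mt62, and 17.0% and 18.8% in WT, so the C13 counts are near that share. CYP83B1, the indolic counterpart of CYP83A1, fell in all 3 lines, with -1.06 in C13, -0.92 in Mt62 and -1.80 in WT, as did the regulator MYB34, with -0.98 in C13, -1.56 in Mt62 and -1.81 in WT. The glutathione transferase GSTF10 rose in all 3 lines, with 1.39 in C13, 1.51 in Mt62 and 2.04 in WT. After 2 h of DETA, 8 of the 13 indolic genes rose in C13, 7 in Mt62 and 5 in WT, beside 4.81%, 5.69% and 5.81% of all named genes. CYP81F2, which modifies the indole ring, was at 1.17 in C13, 1.62 in Mt62 and 1.78 in WT.

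Genes of sulfur supply and of the response to low sulfur were listed in both directions under hypoxia for 24 h against the 24 h control. Of 12 measured genes, 3 rose and 1 fell in C13, 3 rose and 3 fell in Mt62, and 3 rose and 5 fell in WT, beside 17.5% rising and 17.1% falling over all named genes in C13, 15.1% and 15.8% in Mt62, and 18.8% and 17.0% in WT. Most of these counts are near that share. LSU2, a gene of the response to low sulfur, was higher in all 3 lines, at 2.64 in C13, 2.84 in Mt62 and 2.56 in WT. Of the related genes SDI2 was also higher in all 3 lines, while SDI1 and LSU1 were not listed. Against the 0 h control LSU2 was at 1.11 in C13, 1.64 in Mt62 and 1.10 in WT. SDI2 was at 1.29 in Mt62 and 0.79 in WT. In that comparison SDI1 was lower, at -2.14 in C13, -2.34 in Mt62 and -1.57 in WT, as was LSU1, at -0.69 in C13 and -1.07 in Mt62. APK1, which makes the sulfate donor that the sulfotransferases use, was at -1.21 in Mt62 and -1.01 in WT and was not listed in C13. Against the 0 h control APK1 was lower in all 3 lines, at -0.90 in C13, -1.47 in Mt62 and -1.22 in WT. After 24 h of DETA, against the 24 h control, 6 of the 12 genes rose in C13, 6 in Mt62 and 7 in WT and none fell. Of all named genes 3.99% rose in C13, 2.72% in Mt62 and 5.31% in WT, and 3.89%, 3.32% and 5.79% fell. APR2, which reduces activated sulfate, was at 1.65 in C13, 1.22 in Mt62 and 1.57 in WT. Against the 0 h control APR2 was not listed in any line after 24 h of DETA. In that comparison APS3 was higher in C13 at 0.60 and in WT at 0.82, and LSU2 was lower in C13 at -0.97. No other gene of the list was listed there, so most of these rises appear only against the 24 h control.

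Of the 8 measured genes of glucosinolate breakdown, 4 fell in C13, 2 in Mt62 and 4 in WT after 24 h of hypoxia, beside 17.1%, 15.8% and 17.0% of all named genes. ESM1, which steers breakdown towards isothiocyanates, was at -1.10 in C13, -1.35 in Mt62 and -1.55 in WT. MYC2, a bHLH partner of MYB28 and MYB29, rose after 2 h of DETA to 1.76 in C13, 1.17 in Mt62 and 1.16 in WT, at a time when neither MYB gene was listed against the 2 h control; of the 2 measured regulators in that list, MYC2 fell in C13 at 24 h of hypoxia, at -0.61.

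Markers of other tissues also moved after 24 h of hypoxia. Of the 4 phloem and guard-cell markers, SUC2, a sucrose carrier of phloem companion cells, fell to -1.49 in C13, -1.55 in Mt62 and -1.58 in WT, and APL, FAMA and MYB60 were not listed. Of the 7 root markers, PYK10 was at -1.79 in Mt62 and -1.17 in WT and was not listed in C13, which is the pattern of 7 of the members, while AKT1 was at 0.75 in C13 and 0.58 in WT. The other 5 root markers were not listed. Against the 0 h control PYK10 was lower in all 3 lines, at -1.39 in C13, -1.68 in Mt62 and -1.56 in WT. In shoots taken whole, fewer cells of a type and less RNA per cell cannot be told apart, and the part of these markers in the falls of the glucosinolate genes was not tested.

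**Figure D4:**
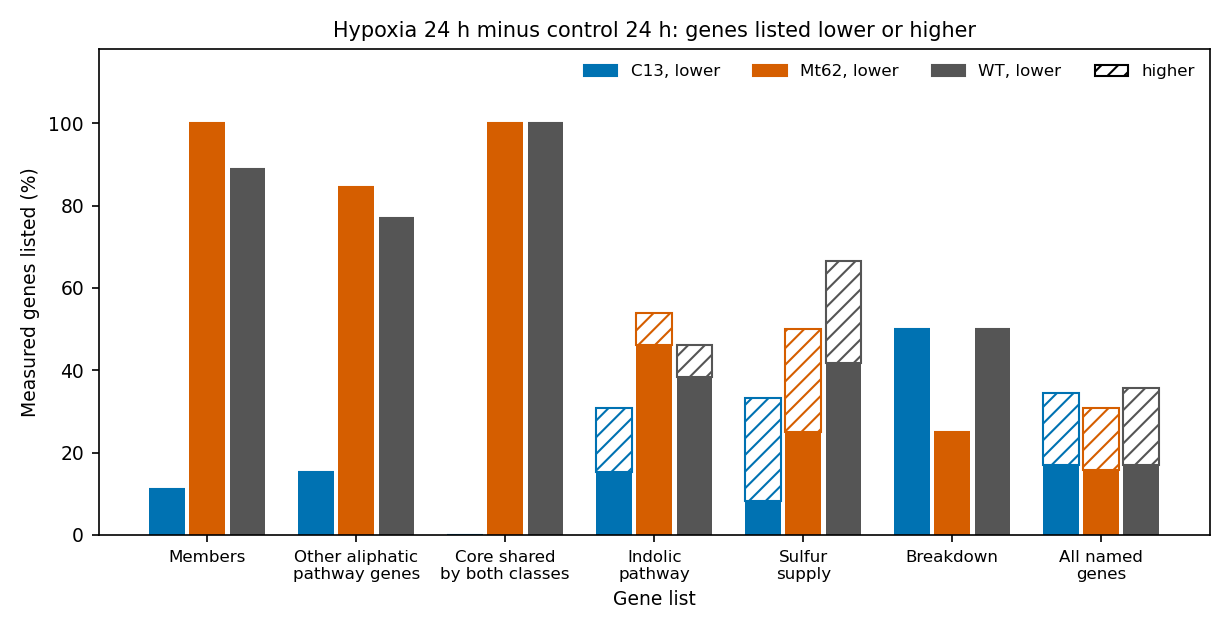
Share of measured genes listed lower (filled) or higher (hatched) after 24 h of hypoxia against the 24 h control, by gene list and line (C13, Mt62, WT), with all 24530 named genes at the right. Nearly every member and most other aliphatic genes were lower in Mt62 and WT, against 1 of 9 and 2 of 13 genes in C13.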

How the data were processed

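Arrays were Agilent oligonucleotide arrays with 3 dyes per field. Per the labels' protocols and the series design text, the authors applied quantile normalization, an in-house version of ComBat and an empirical Bayes test in R and Bioconductor (versions not stated), and deposited log fold changes, read here as log2, with p above 0.01 set to null. An adjustment of their p is not stated. The members and gene lists were chosen with earlier results of these data known.

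Rows were named through the probe table and the annotation TAIR10.1: 26366 rows have 1 gene and 8192 none. A gene's value is the mean of its listed rows where these have 1 sign. The columns add up around closed loops of comparisons (largest residual 2.0e-09), so differences that are not columns were summed along listed columns. The smallest listed value of a row, over the normal quantile 2.58 and scaled by channel numbers, bounds the standard error. This assumes 1 variance per row; 98.6% of the 4473 rows that allow a check fit it. P-values used the bound with t on 60 degrees of freedom and Benjamini-Hochberg adjustment at 0.05 over all rows with a value. Differences between Mt62 and C13, between 24 h and 2 h responses and between hypoxia and DETA responses were chosen after seeing the data. Named were all members, up to 4 genes per list and comparison by largest size, and the 10 genes most like the members' mean; ESM1, MYC2, APK1, SUC2, PYK10, AKT1 and others named for a contrast between lines were chosen after their values were seen. Calculations used Python 3.11.15, numpy 2.4.6, pandas 2.3.3 and scipy 1.17.1, and were tested on simulated data. The number of arrays limits the precision.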

Additional observations from a re-analysis of the deposited data

Results flagged for a closer look

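Responses that differed between times or treatments within a line, by the test of the difference itself, were the following; differences between treated groups of 24 h and 2 h that do not use the controls are left to the results above. CYP79F2 in WT had a response to hypoxia that was lower at 24 h than at 2 h by -1.41, with -0.81 at 24 h and 0.60 at 2 h. SOT17 in Mt62 had a response to hypoxia that was lower at 24 h than at 2 h by -1.50, with -0.82 at 24 h and 0.68 at 2 h. For CYP79F2 and SOT17 both values were listed with opposite signs, so passing was built in and adds no support. MYB29 in WT had a response to DETA that was higher at 24 h than at 2 h by 0.81, with 0.56 at 24 h and a computed, not listed -0.24 at 2 h. This test was passed by 30.5% of rows with a value in WT. The 0.56 did not pass when adjusted over all rows (adjusted p at most 0.111). Against the 0 h control the 24 h DETA value was not listed and was computed as -0.004.

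Responses to hypoxia minus those to DETA at 24 h were -2.08 for SOT18 in Mt62, -1.89 for SOT17 in Mt62 and -1.38 for MYB29 in WT. Here too both responses were listed with opposite signs, so passing was built in. At 2 h the difference was -0.50 for MYB29 in Mt62 (adjusted p at most 0.0401), with -0.79 under hypoxia and a computed, not listed -0.29 under DETA. Of rows with a value, 42.9% passed that test in Mt62. No difference between lines passed.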

How the results depend on the processing

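Adjusted over all rows, the falls after 24 h of hypoxia stayed at 1 gene in C13, 9 in Mt62 and 8 in WT; the rises against the control of the same time dropped to 2, the rise against the 0 h control to 0 and the listed value against WT to 0. With a size of at least 1 on the log2 scale required, those falls were 0 in C13, 8 in Mt62 and 5 in WT; in all, 13 falls and 1 rise remained against the control of the same time, 21 falls and 0 rises against the 0 h control, and 0 values against WT. With the 0 h control in place of the same-time control, 5 genes fell in C13 after 24 h of hypoxia, and the rises over all 12 columns came to 1. Choosing the row of largest size, or requiring all rows of a gene, changed no count, as each gene has 1 row. Other channel numbers for C13 hypoxia 2 h and Mt62 hypoxia 24 h changed no count of passed differences. With a t quantile for the bound, 4 differences passed in place of 3 among the controls and 24 h minus 2 h (MYB29 in the WT controls added) and 4 in place of 3 among the responses at 24 h minus 2 h (MAM1 in Mt62 added). Ranking on the 12 columns against the control of the same time kept 3 of the 10 most like genes; using computed values kept 10.

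No paired analysis was possible because the table holds no value per array, which also prevented leaving out replicates. Promoter motifs were not run, as no sequence table was used here. Depth does not apply, and signal over background was not analysed here.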
